A study of Danio rerio with 4 samples.

Results

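The genes of the large ribosomal subunit proteins were examined in endothelial cells sorted from zebrafish embryos of 2 genotypes. They were found by gene symbol, as those of the form rpl plus a number with or without 1 letter or an l1 ending, or rplp0 to rplp2 with or without an l ending. The rule found 46 of the 31951 genes in the table, under 45 symbols, because RPL5 names 2 genes. Both groups carried kdrl:mcherry, whose red fluorescence under the endothelial kdrl promoter was the basis of the sort, and 1 group also carried kdrl:cxcr1, in which that promoter drives the chemokine receptor gene cxcr1. The group with kdrl:mcherry alone is called wild-type, after its labels. Each of 2 independent clutches gave 1 library per genotype, so there were 4 libraries, 2 per group. The labels give the stage only as embryos and do not say how many fish were pooled. Levels are FPKM (fragments scaled to transcript length and library size), as the authors deposited them. Pairs of values are for clutch 1 and then clutch 2, and values of the libraries labelled kdrl:cxcr1 come before those of wild-type.

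A ribosome has a small subunit that reads the messenger RNA and a large subunit that joins amino acids. The large subunit is built in the nucleolus from ribosomal RNA and many proteins, nearly all present as 1 copy per particle, while the acidic stalk proteins are present as several. The proteins hold the catalytic RNA in shape, line the tunnel through which the new chain leaves, and form the stalks on which the elongation factors act. In zebrafish, loss of single ribosomal proteins is known to disturb blood formation, and fish with 1 defective copy of several of these genes are prone to tumours. Endings in these names differ in meaning: RPL7A, RPL10A, RPL13A, RPL23A and RPL35A are proteins of their own, whereas RPL7L1, RPL22L1 and rplp2l are named as relatives of the gene they are numbered after.

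FPKM values do not show how many reads a library had, and counting errors cannot be given. The FPKM sums of the libraries ran from 986557 to 1280969, and the signal recognition particle RNA rn7sl1 took 24.0% to 39.8% of each. The targeted gene did not separate the genotypes: cxcr1 read 12.8 and 0 against 8.14 and 0 FPKM. A second gene under the symbol CXCR1 read 0 and 8.21 against 3.89 and 0 FPKM. Directions below are therefore those of the labels on the libraries. Of the endothelial markers, 15 genes had a value above 0 in every library, among them the VEGF receptor gene kdrl (140 and 157 against 128 and 274 FPKM) and the cadherin gene cdh5 (95.2 and 128 against 92.5 and 178 FPKM).

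Large subunit transcripts were among the most abundant in the sorted cells. No member was listed at 0 or below 1 FPKM in any library, so all 46 passed the filter on low values and were tested. By mean FPKM, 34 of them ranked among the first 500 of the 17723 tested genes. Their median was 386 and 435 against 266 and 382 FPKM, while the median of all tested genes lay between 6.37 and 7.62 FPKM. Between 40 and 44 members lay in the top 5% of a library's tested genes, and between 20 and 22 in its top 1%.

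Although their proteins are assembled mostly 1 to 1, the transcripts spanned a wide range of FPKM. The highest member of a library exceeded the lowest by 137 and 87.0 times in the kdrl:cxcr1 libraries and by 106 and 195 times in the others. The SD of the log2 level over the members was 1.56 and 1.47 against 1.51 and 1.51, so the breadth was similar in the 4 libraries. The 10 highest members carried 52.3% and 50.9% of the members' summed FPKM in kdrl:cxcr1, and 47.3% and 46.8% in wild-type. In each library the highest was RPLP1, an acidic protein of the P stalk, at 2693 and 2598 against 1577 and 2027 FPKM. The next by mean were RPL28, RPL29 and RPL12. RPL28, a protein of the subunit surface, read 1424 and 1655 against 894 and 1060 FPKM.

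The lowest members stood well apart from the rest. RPL22L1 read 19.6 and 29.9 against 26.5 and 10.4 FPKM. RPL21 read 31.4 and 56.1 against 14.9 and 46.5 FPKM. Their genotype groups overlapped, and all other members averaged above 90 FPKM, beginning with RPL37 (113 and 116 against 74.4 and 60.6 FPKM) at a mean of 91.1 FPKM. Across the 46 members, log2 levels of different libraries had Spearman rho between 0.812 and 0.929. The highest rho was between the kdrl:cxcr1 libraries, and the lowest between kdrl:cxcr1 clutch 2 and wild-type clutch 1, which share neither genotype nor clutch. Levels did not simply group by genotype. The wild-type libraries had a rho of 0.864, below the 0.886 (clutch 1) and 0.889 (clutch 2) between genotypes within a clutch. These correlations are across genes, which are not independent replicates. Reads of near-identical copies, and of pseudogenes, could be divided differently by the authors' counting, so levels of single members are uncertain to that extent.

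**Figure D1:**
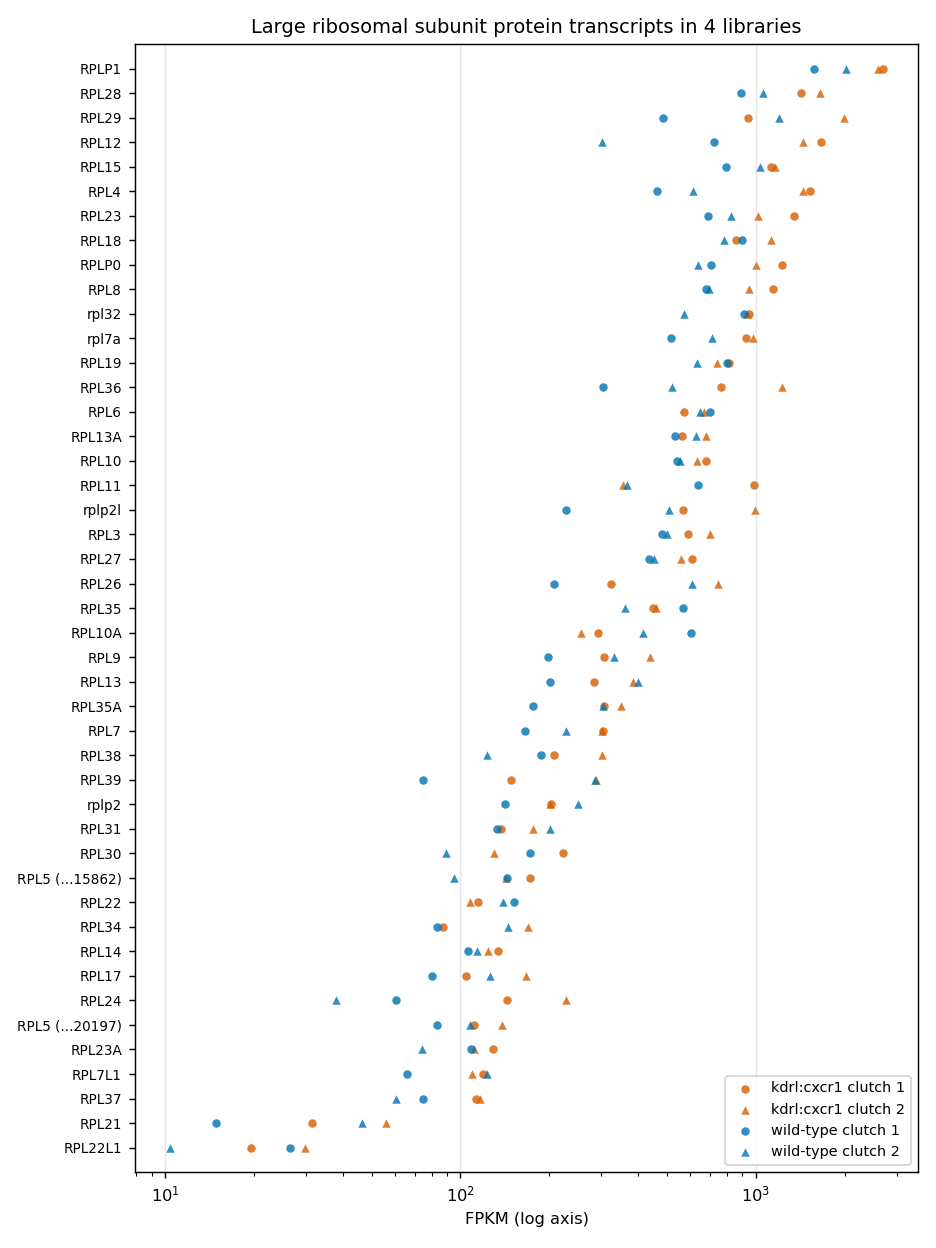
FPKM (log axis) of 45 of the 46 large subunit genes in each of the 4 libraries, ordered by mean FPKM; points are single libraries, colour gives the genotype and shape the clutch, and the 2 RPL5 genes are told apart by the end of their Ensembl identifier. RPLP1 is at the top with 1577 to 2693 FPKM and RPL22L1 at the bottom with 10.4 to 29.9 FPKM.

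In 3 of 4 paralog pairs the same gene was the higher in all 4 libraries. RPL22 binds ribosomal RNA at the subunit surface, and in zebrafish RPL22 and its relative RPL22L1 are known to act in opposition in the formation of blood stem cells. RPL22 read 114 and 107 against 152 and 139 FPKM. Its ratio to RPL22L1 was 5.84 and 3.6 against 5.73 and 13.4, so RPL22 exceeded RPL22L1 in 4 of 4 libraries while the ratio itself varied within the wild-type group.

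RPL7 is a structural protein of the subunit, and RPL7L1 is known from yeast and human relatives as a factor of early assembly in the nucleolus. RPL7 read 303 and 302 against 166 and 227 FPKM. RPL7L1 read 119 and 109 against 65.9 and 123 FPKM. The ratio of RPL7 to RPL7L1 was 2.55 and 2.76 against 2.52 and 1.85, the narrowest spread of the 4 pairs (mean log2 ratio 1.25, SD 0.25, n = 4 libraries).

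For the stalk protein P2, the gene named rplp2l was the more abundant. It read 568 and 996 against 228 and 510 FPKM. The gene rplp2 read 203 and 201 against 141 and 250 FPKM. The ratio of rplp2l to rplp2 was 2.80 and 4.95 against 1.61 and 2.04, higher in both kdrl:cxcr1 libraries than in either wild-type library. This difference in ratio was not tested.

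The levels of the 2 RPL5 genes lay closer together in clutch 2 than in clutch 1. ENSDARG00000015862 read 172 and 143 against 144 and 95 FPKM. ENSDARG00000020197 read 111 and 138 against 83.2 and 108 FPKM. The first exceeded the second in 3 of 4 libraries, by 1.55 and 1.73 times in clutch 1 (kdrl:cxcr1 and wild-type), and by 1.03 times in kdrl:cxcr1 clutch 2. In wild-type clutch 2 the ratio was 0.883, so this pair's ratio moved with the clutch in both genotypes.

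**Figure D2:**
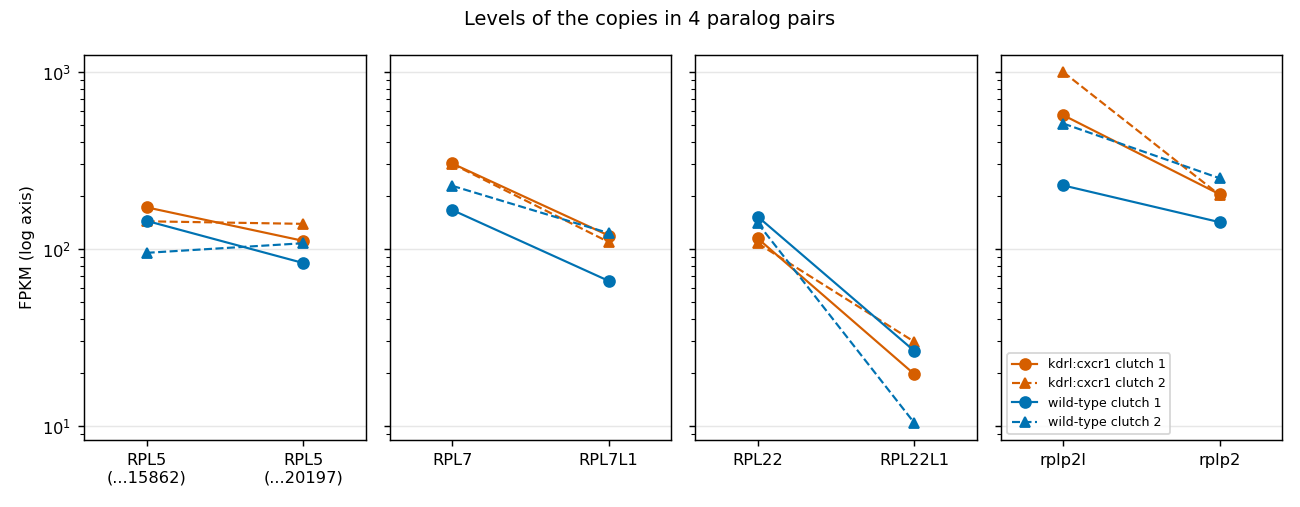
FPKM (log axis) of both genes of 4 paralog pairs; each line joins the 2 genes within 1 library, with colour for the genotype and marker and line style for the clutch. RPL22 lies above RPL22L1 by 3.6 to 13.4 times, while in the RPL5 pair the clutch 1 lines fall by 1.55 and 1.73 times and that of wild-type clutch 2 slopes the other way.

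The summed FPKM of the 46 members was higher in the libraries labelled kdrl:cxcr1 in both clutches. It was 26913 and 28825 against 18636 and 20574, a ratio of 1.44 in clutch 1 and 1.4 in clutch 2. As a share of all FPKM without rn7sl1 the members made up 3.95% and 3.47% against 3.14% and 2.11%, and the groups did not overlap. In such bulk samples, fewer cells of a type and less RNA per cell cannot be told apart. The median log2 fold change of all tested genes was itself 0.16, and -0.03 after median-of-ratios scaling. The log2 fold changes that follow are therefore given relative to the median gene. Standard errors and p-values are those of the log2 fold changes before the median was subtracted.

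No single member passed the test between genotypes. By limma's moderated test over all genes with Benjamini-Hochberg adjustment, 0 of the 46 members had an adjusted p under 0.05 and the smallest was 0.699. Over all 17723 tested genes the test called 2, or 0.0113%, and with the clutch as a block it called 0. At an unadjusted p under 0.05, 4 members were higher in kdrl:cxcr1 (RPL24, RPL4, RPL12 and RPL36), where 4.54% of all tested genes were. RPL10A alone was lower, where 2.27% of all tested genes were. The median standard error of a member's log2 fold change was 0.37, against 0.62 for all tested genes.

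Most members nevertheless lay above the median gene. Of the 46, 36 lay above it and 10 below, with a median of 0.26. The median was 0.36 in clutch 1 and 0.20 in clutch 2. In both clutches alike, 28 members lay above the median gene and 6 below, against 29.1% of all tested genes in each direction. Both kdrl:cxcr1 libraries exceeded both wild-type libraries in 23 members (26% of all tested genes) and were below both in 3, RPL10A and RPL22 among them (13.6% of all tested genes). Abundant genes gave a like background: 1649 genes had at least 50 FPKM in at least 2 libraries, 44 members among them. Of these genes 29.6% were higher without overlap, and 23 members were. Lower without overlap were 15.5% and 3 members. Above the median gene in both clutches were 32.1% and 27 members, below it in both 34.7% and 6 members, and above it in the fit 47.6% and 34 members.

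The size of this shift depended on single libraries. With the kdrl:cxcr1 library of clutch 2 left out, the members' median was 0.09 and 31 members lay above the median gene. With the wild-type library of clutch 1 left out, the median was 0.10 and 26 members lay above. Leaving out the kdrl:cxcr1 library of clutch 1 or the wild-type library of clutch 2 gave medians of 0.34 and 0.46, with 36 members above in each case.

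The members with the smallest p-values in each direction, picked for 1 sign in both clutches, departed from the median gene by different amounts. In each of the first 6 below the genotype groups did not overlap, which the pick from these same libraries favoured. RPL24, a protein of the face toward the small subunit, read 144 and 228 against 60.7 and 37.8 FPKM. Its log2 fold change was 1.90 in the fit (SE 0.41, limma, Benjamini-Hochberg adjusted p = 0.699) and 1.74 relative to the median gene. RPL4, which reaches into the exit tunnel, read 1526 and 1447 against 463 and 615 FPKM, a relative log2 fold change of 1.32 (SE 0.36). These are the 2 members with the smallest p, and wild-type values were below kdrl:cxcr1 values in both clutches. RPL12, which binds at the base of the P stalk, read 1667 and 1446 against 720 and 303 FPKM (relative log2 fold change 1.57, SE 0.50). RPL36, a protein of the subunit surface, read 762 and 1226 against 304 and 522 FPKM (1.12, SE 0.44).

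On the other side, RPL10A read 292 and 256 against 605 and 414 FPKM. RPL10A forms the L1 stalk, where spent transfer RNA leaves. Its log2 fold change was -0.87 in the fit (SE 0.35, limma, Benjamini-Hochberg adjusted p = 0.699) and -1.03 relative to the median gene. RPL22, described above beside its relative, had a relative log2 fold change of -0.55 (SE 0.30). RPL6 overlapped, with 571 and 670 against 698 and 646 FPKM (-0.27, SE 0.33). Its log2 fold change in the fit was only -0.12 (limma, Benjamini-Hochberg adjusted p = 0.956). It was picked because only 6 members lay below the median gene in both clutches.

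Expressed as shares of the members' own sum, a measure that no scaling between libraries can alter, the same genes kept apart. They were picked from these same libraries, so the shares describe the difference and are no separate evidence for it. RPL4 made up 5.67% and 5.02% of the sum, against 2.49% and 2.99%. RPL12 made up 6.19% and 5.02% against 3.86% and 1.47%. RPL10A made up 1.09% and 0.889% against 3.25% and 2.01%. RPL6, whose FPKM overlapped, took 2.12% and 2.32% against 3.74% and 3.14%, which did not overlap. The members' sum was higher in kdrl:cxcr1, so a gene that rose less than the sum loses share. RPL10, higher in FPKM in both kdrl:cxcr1 libraries, also took less of the sum there (2.52% and 2.19% against 2.90% and 2.69%). A lower share without overlap, as in RPL6, is therefore not a lower level.

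**Figure D3:**
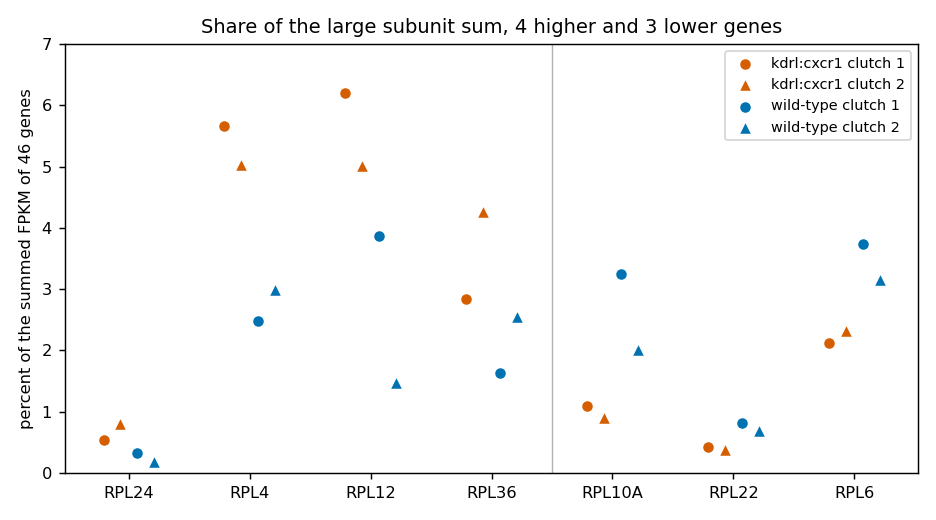
Share of the summed FPKM of the 46 genes (percent, linear axis from 0) taken by the 4 genes with the smallest p among those higher in kdrl:cxcr1 (left of the line) and by 3 of the 4 among those lower (right); points are single libraries, with colour for the genotype and shape for the clutch. RPL4 takes 5.02% to 5.67% in kdrl:cxcr1 and 2.49% to 2.99% in wild-type, and RPL10A 0.889% to 1.09% against 2.01% to 3.25%.

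The P stalk is the flexible arm that recruits elongation factors, built of RPLP0 with copies of P1 and P2. Of its 4 genes, 3 lay above the median gene, as did 36 of all 46 members. RPLP0 read 1222 and 1005 against 707 and 636 FPKM (relative log2 fold change 0.57, SE 0.35), and RPLP1 was at 0.41 (SE 0.41). For both the groups did not overlap, nor did they for rplp2l (568 and 996 against 228 and 510 FPKM). Higher without overlap were 23 of all 46 members and 26% of all tested genes. Levels of rplp2l also moved with the clutch. Relative to the median gene, its log2 ratio of clutch 2 to clutch 1 was 0.83 in kdrl:cxcr1 and 1.23 in wild-type. The P2 gene rplp2l was at 0.98 (SE 0.52), while rplp2 was at -0.05 (SE 0.38), with opposite signs in the clutches (0.38 and -0.47). None of the 4 passed the test.

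The 5S particle joins the 5S ribosomal RNA with RPL5 and RPL11, which enter the growing subunit together. Its 3 genes had relative log2 fold changes between 0.14 and 0.26. RPL11 read 989 and 356 against 638 and 366 FPKM. Its clutch 1 libraries were above its clutch 2 libraries in kdrl:cxcr1 and in wild-type, and its genotype ratio had opposite signs in the clutches (0.49 and -0.20; SE of the fit 0.59).

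RPL3, RPL8 and RPL10 lie near the catalytic centre. RPL3 read 590 and 703 against 480 and 500 FPKM (relative log2 fold change 0.24, SE 0.32). RPL8 read 1145 and 948 against 680 and 694 FPKM (0.44, SE 0.34). RPL10, among the last proteins to join the subunit, read 678 and 631 against 541 and 553 FPKM (0.10, SE 0.32). All 3 were higher in FPKM in both kdrl:cxcr1 libraries than in either wild-type library. So were 23 of all 46 members and 26% of all tested genes. After subtraction of the median gene the difference exceeded its standard error in RPL8 only. The list drawn up for the catalytic core also held RPL4 and RPL10A, given above. Of its 5 genes, 4 lay above the median gene, as did 36 of all 46 members. The exception was RPL10A, which is a protein of the L1 stalk.

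Around the end of the exit tunnel, where nascent chains meet targeting factors, 8 genes were listed (RPL17, RPL19, RPL23A, RPL26, RPL31, RPL35, RPL39 and, less certainly placed, RPL38) and 5 lay above the median gene. Of all 46 members, 36 lay above it. The 8 genes ranged from -0.23 for RPL31 to 0.56 for RPL38. RPL38, known from mice for its part in translating Hox messages, read 207 and 302 against 187 and 123 FPKM, with nearly all of its difference in clutch 2 (0.00 in clutch 1 and 1.13 in clutch 2). RPL35 went the other way in clutch 1 (-0.48) and not in clutch 2 (0.19), at 448 and 459 against 568 and 360 FPKM. RPL17 read 104 and 166 against 80.3 and 126 FPKM, and RPL19 812 and 739 against 798 and 633 FPKM. RPL23A read 129 and 111 against 109 and 74.0 FPKM, and RPL31 137 and 176 against 133 and 200 FPKM. These 4 lay within 0.26 of the median gene; the groups overlapped in RPL17, RPL19 and RPL31 and not in RPL23A. RPL26 and RPL39 differed mainly by clutch and are given with the clutches.

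The members' genotype ratios in clutch 1 and clutch 2 resembled each other only in part. Over the 46 members, the genotype log2 ratio of clutch 1 and that of clutch 2 had a Pearson r of 0.50 and a Spearman rho of 0.36. These ratios share no library, but each pair of libraries was made from 1 clutch, and the r is given as a description. Over all tested genes r was 0.11. The members of smallest p in each direction had been picked for 1 sign in both clutches. Without these picked members r was -0.15 over the remaining 38, so the r of 0.50 depended on them. Leaving out genes picked in this way itself lowers r. The sign was the same in both clutches for 34 members, where 58.1% of all tested genes had 1 sign. Abundant genes came nearer to the members. Of those with at least 50 FPKM in at least 2 libraries, 32.1% lay above the median gene in both clutches and 34.7% below. Of the 44 members among them, 27 lay above and 6 below. The r of 0.11 covers tested genes of all levels. A member's 2 clutch ratios differed by a median of 0.33 log2 units. RPL22L1 had opposite signs, at -0.56 in clutch 1 and 1.28 in clutch 2.

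**Figure D4:**
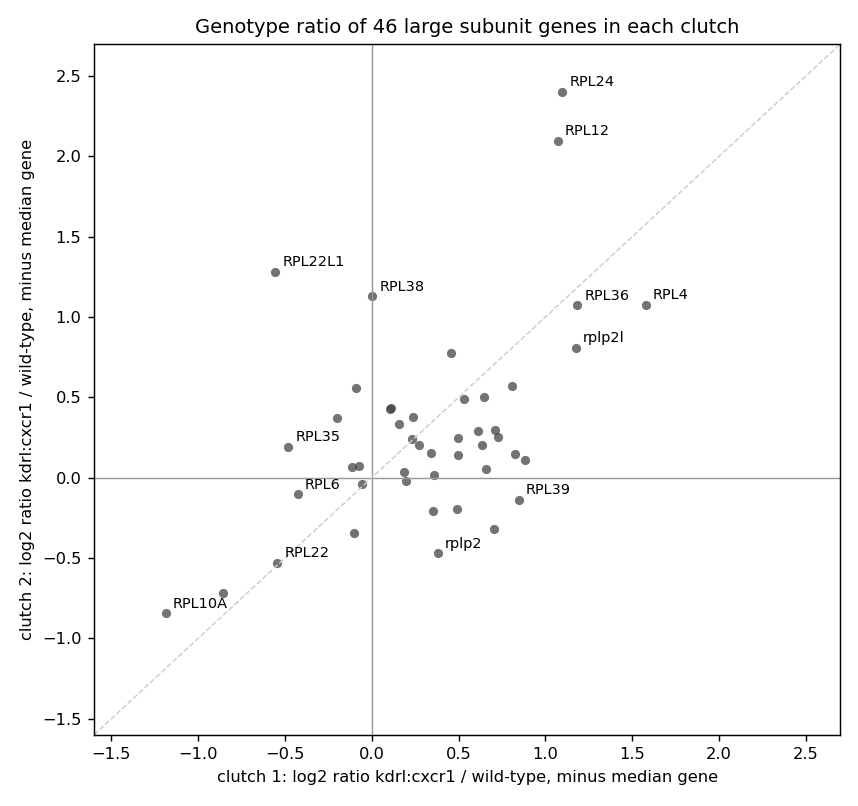
Log2 ratio of kdrl:cxcr1 to wild-type in clutch 1 (x axis) and clutch 2 (y axis), each minus the median of all tested genes, for the 46 large subunit genes; 1 point is 1 gene and the dashed line marks equal ratios. RPL24, RPL12, RPL4 and RPL36 lie at the upper right, RPL10A and RPL22 at the lower left, and 28 genes lie above 0 in both clutches.

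Several members differed more by clutch than by genotype. Read as clutch 2 over clutch 1 within each genotype, relative to the median gene, 20 members were higher in clutch 2 in both genotypes and 10 lower, against 27.5% of all tested genes in each direction. RPL39, a short protein of the tunnel wall, read 149 and 288 against 74.5 and 285 FPKM. Its log2 clutch ratios were 0.98 and 1.99. RPL26 read 324 and 746 against 208 and 606 FPKM (1.23 and 1.61), and RPL29 939 and 1986 against 486 and 1202 FPKM (1.1 and 1.37). RPL21 also followed the clutch (0.84 and 1.65). In the opposite direction stood RPL11 (-1.45 and -0.73) and RPL30 (-0.75 and -0.86). These genes were picked after their values were seen and are a description. The libraries of the 2 clutches also differed as a whole. Genes at 0 made up 31.9% and 43.5% of the table against 31.9% and 42.0%. The RNA rn7sl1 took 37.5% and 30.1% of the FPKM sum against 39.8% and 24.0%. A clutch difference in single members cannot be told apart from this difference between libraries. Over the 46 members the clutch ratios of the 2 genotypes had a Pearson r of 0.61, against 0.12 over all tested genes. Genes named for their genotype difference were among the 30: RPL36 was higher in clutch 2 in both genotypes (0.71 and 0.85) and RPL12 lower (-0.18 and -1.18). The median within-group SD of the members was 0.31 on the log2 scale, against 0.55 for all tested genes and 0.38 for those of at least 50 FPKM.

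Other genes of the translation machinery were read from the same fit, and 0 members of these lists passed the test. The small subunit proteins had a median of 0.22 over 34 tested genes, with 22 above the median gene and 12 below. RPS7 (1084 and 891 against 368 and 264 FPKM; relative log2 fold change 1.5, SE 0.36) and RPS15 (421 and 394 against 196 and 154 FPKM) had the smallest p. The list drawn up for large subunit assembly also holds genes of wider nucleolar function, such as POLR1A, POLR1B, FBL and NAT10. Its 34 genes had a median of 0.16, with 23 above the median gene, but only 13 had 1 sign in both clutches. Their median was 0.04 with the kdrl:cxcr1 library of clutch 2 left out and -0.03 with the wild-type library of clutch 1 left out, and 0.41 and 0.42 with the other libraries left out in turn. The smallest p belonged to ncl, the gene of the nucleolar protein nucleolin, at 182 and 394 against 64.4 and 129 FPKM (1.39, SE 0.53), and to MRTO4, which holds the place of RPLP0 during assembly (0.91, SE 0.41).

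For mitochondrial ribosomal proteins and elongation factors the medians lay near 0. Mitochondrial large subunit proteins had a median of 0.04 over 45 genes, but 0.34 in clutch 1 and -0.32 in clutch 2, and -0.31 with the wild-type library of clutch 1 left out. MRPL43 (2.21) and MRPL33 (-2.27), their genes of smallest p, lay on opposite sides. Translation elongation factors had a median of -0.02, with 5 of 11 above. This median was -0.24 with the kdrl:cxcr1 library of clutch 2 left out and -0.29 with the wild-type library of clutch 1 left out. It was -0.02 without the kdrl:cxcr1 library of clutch 1 and -0.08 without the wild-type library of clutch 2. A gene of the factor that brings transfer RNA to the ribosome, EEF1A1 (ENSDARG00000039502), read 0.639 and 0 against 4.19 and 3.96 FPKM. These values are low, while the whole list, which holds other genes of that factor, summed to 6411 and 6366 against 6940 and 7531 FPKM. The gene eef2b, of the factor that moves the ribosome along, read 675 and 669 against 443 and 247 FPKM. Of the 12 regulators, with a median of 0.26, 7 lay above the median gene. Among them was a gene of MYC, which drives ribosome production. This gene (ENSDARG00000045695), picked for its small p, read 30.2 and 52.7 against 20.4 and 13.6 FPKM. Another gene of the list carries the symbol MYC, and its values are not given here. The regulators' median ran from 0.06, with the wild-type library of clutch 1 left out, to 0.47, with the kdrl:cxcr1 library of clutch 1 left out. RPL36AL, which the naming rule leaves out, read 10.7 and 17.6 against 13.5 and 8.44 FPKM.

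Markers of other cells and of division also read unequally in the 2 genotypes. Sums here cover all genes of a list, tested or not. Proliferation genes summed to 890 and 891 against 683 and 702 FPKM. An MCM6 gene too low to be tested was at 0 in wild-type clutch 2. Of the 15 tested proliferation genes, 11 lay above the median gene (median 0.42). Erythroid markers lay above it in 7 of 9, with sums of 6523 and 1457 FPKM against 3064 and 1650 FPKM, hbae5 at 0 in both clutch 2 libraries and 1 of the SLC4A1 genes at 0 throughout. Neutrophil and macrophage markers lay above it in 7 of 10, with sums of 1125 and 1677 against 637 and 930 FPKM, with c1qc at 0 in both kdrl:cxcr1 libraries and 4 MFAP4 genes at 0 in 1 or more libraries. Epidermal markers lay below it in 8 of 9 (sums of 790 and 597 against 880 and 1070 FPKM; cldne at 0 in kdrl:cxcr1 clutch 2), and those of liver, gut and yolk in 6 of 6 (66.5 and 12.3 against 115 and 115 FPKM; FABP2 at 0 in kdrl:cxcr1 clutch 2 and fabp10a in both clutch 2 libraries). Endothelial markers lay below it in 12 of 15, with sums of 947 and 1192 against 902 and 1476 FPKM. Their median of -0.19 was 0.02 in clutch 1 and -0.33 in clutch 2, and it turned to 0.27 with the wild-type library of clutch 2 left out and to 0.04 with the kdrl:cxcr1 library of clutch 1 left out. The medians of the neutrophil and macrophage, muscle and nerve lists also turned in sign with 1 library left out, to -0.01, 0.62 and -0.28. Muscle markers lay above the median gene in 2 of 5 and nerve markers in 4 of 5, so these lists were mixed. Muscle sums were 103 and 29.6 against 71.7 and 56.9 FPKM, with 1 TNNT3 gene at 0 in kdrl:cxcr1 clutch 2. Nerve sums were 149 and 98.8 against 172 and 29.1 FPKM, with 1 SNAP25 gene at 0 in wild-type clutch 2. The part of these cell types and of division in the ribosomal values was not tested.

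**Figure D5:**
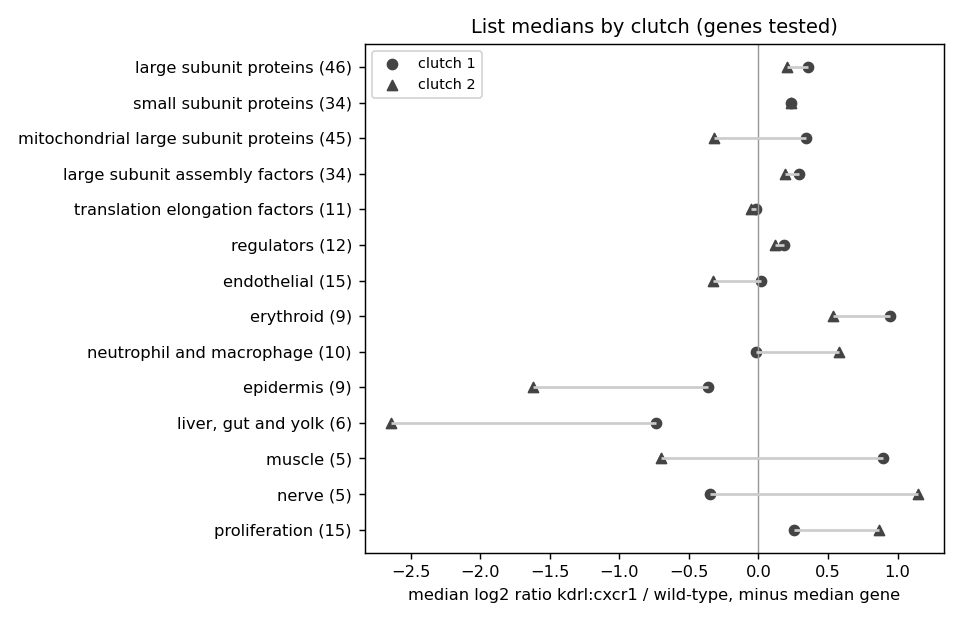
Median log2 ratio of kdrl:cxcr1 to wild-type, minus the median gene, of each gene list in clutch 1 (circles) and clutch 2 (triangles), with the number of tested genes in brackets. The large subunit proteins lie at 0.36 and 0.20 and the small subunit proteins at 0.24 and 0.23, while the lists of liver, gut and yolk and of epidermis lie below 0 in both clutches.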

How the data were processed

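RNA was amplified from low input with SMARTer chemistry, per the labels' protocols. As deposited, 1 table gave FPKM values of 31951 Ensembl genes in 4 libraries. The submitters' processing notes name TopHat2 2.0.11, Cufflinks 2.2.1, cutadapt and build GRCz10; annotation, strand setting and scaling are not stated in the sources used here. No whole-read steps were seen: of 951 genes under 0.5 FPKM in both clutch 1 libraries, at most 0.95% shared a ratio to within 0.01 log2 units. Depth is therefore unknown, and an exact 0 may be a failed estimate.

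Symbols from an identifier table covered 26120 genes. No genome or sequence table was used here. Members and lists were chosen with earlier results of these data known.

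Values were analysed as log2(FPKM + 1), which understates changes of low genes, for 17723 genes of at least 1 FPKM in at least 2 libraries. The test was limma 3.58.1 in R 4.3.3 (moderated, intensity trend, two-sided, Benjamini-Hochberg, threshold 0.05), with 5.69 degrees of freedom, 3.69 of them from the other genes. The script was tested on simulated data. Other numbers came from Python 3.11.15. Clutches pair the libraries by their labels, and deviations from group means correlated at 0.116 within a clutch.

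Genes named were paralog pairs, the P stalk, the 5S particle, the tunnel exit, the catalytic core, the 4 highest and 4 lowest by mean, the 4 of smallest p in each direction with 1 sign in both clutches, and the 2 of smallest p in each companion list. RPL30, RPL36AL, kdrl, cdh5 and markers at 0 were named after values were seen. Some genes, 1 member among them, are counted but not reported here by name. Alternatives were pseudocounts, filters, scalings, the clutch block, the variance prior and leaving out each library.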

Additional observations from a re-analysis of the deposited data

How the results depend on the processing

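The count of 2 genes called over all genes was 0 with a pseudocount of 0.1, without a filter, at 50 FPKM in at least 2 libraries (chosen after seeing the data), with the clutch as a replicate block, without the intensity trend and without any 1 library (0 to 0). No member tested was called under any setting run, and the lowest adjusted p of a member was 0.484, at 50 FPKM, where 44 were tested; the block changed no other call. The members' median of 0.26 was 0.42 without a filter, which brings in many genes listed at 0, and 0.091 to 0.46 with 1 library left out. It was 0.29 at 50 FPKM and 0.24 without the 4 genes of smallest p among those higher in kdrl:cxcr1. Both settings were chosen after seeing the data. The spread of levels, here the SD over members of the log2 level averaged over the libraries, was 1.46, and 1.42 with a pseudocount of 5. The small subunit median of 0.22 was 0.19 with a pseudocount of 0.1, 0.28 with 5, 0.36 without a filter, 0.19 at 5 FPKM, 0.19 with median-of-ratios scaling, 0.23 when scaled without rn7sl1 and 0.16 to 0.33 with 1 library left out.

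Of the 33 named members, signs relative to the median gene turned for RPL19 (0.031 with a pseudocount of 5, 0.12 without a filter), RPL35 (0.0036 without a filter) and rplp2 (0.0074 and 0.10). With 1 library left out they turned for 13, with ranges of -0.052 to 1.39 (RPL29), -0.14 to 0.054 (RPL19), -0.59 to 0.81 (RPL11), -0.54 to 1.14 (RPL26), -0.42 to 0.10 (RPL35), -0.69 to 1.37 (RPL39), -0.54 to 0.42 (rplp2), -0.60 to 0.12 (RPL31), -0.18 to 0.61 (RPL17), -0.034 to 0.47 (RPL5, ENSDARG00000020197), -0.34 to 0.69 (RPL7L1), -0.38 to 1.34 (RPL21) and -0.22 to 0.91 (RPL22L1). The cause was not tested. Log2 ratios of the paralog pairs, averaged over libraries, kept their sign under all settings tried. Filters cannot change such a ratio within a library and scalings hardly can, so only the pseudocounts and the left-out libraries bear on it. The mean of the RPL5 pair ran from 0.16 to 0.49 with 1 library left out, and in wild-type clutch 2 alone its log2 ratio was -0.18. With 2 libraries a group and unknown depth, even differences several times their standard error, such as that of RPL24, did not pass the test.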
